A study of Mus musculus with 8 samples.

Results

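The genes described are 10 secreted signals by which cells call and feed white blood cells: the CXC chemokines Cxcl1, Cxcl2, Cxcl5, Cxcl12 and Cxcl16, the CC chemokines Ccl2 and Ccl20, and the colony-stimulating factors Csf1, Csf2 and Csf3. They were taken by symbol from a table of 24421 gene rows, and all 10 were found. The table holds poly(A)-selected RNA-seq of KPCY cells, a mouse pancreatic cancer line labelled as male. In 4 libraries the cells stably expressed an inhibitor against miR-27a-3p from a lentivirus (the knockdown), and in the other 4 they expressed a scrambled sequence in its place, so all 8 carry a lentivirus and went through puromycin selection. The titles call the 4 libraries of each group biological replicates 1 to 4. Each group is 1 stable line, however, and the labels name no separate transductions. The p-values therefore speak of differences between these lines and may rest on technical spread. The cells were grown alone, with no leukocytes present to receive the signals.

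Chemokines are small secreted proteins that steer leukocytes along a gradient through receptors coupled to G proteins. Cxcl1, Cxcl2 and Cxcl5 act on the receptor Cxcr2 and draw neutrophils, Ccl2 acts on Ccr2 and draws monocytes, Ccl20 acts on Ccr6, Cxcl12 on Cxcr4 and Ackr3, and Cxcl16 on Cxcr6. Csf1, Csf2 and Csf3, also called M-CSF, GM-CSF and G-CSF, keep macrophages alive, expand myeloid cells and release neutrophils from the bone marrow. In pancreatic cancer, tumour cells are a known source of Cxcr2 ligands and of GM-CSF, which act on the myeloid cells around the tumour. Several of these transcripts are switched on by NF-kB and are cleared fast by proteins that bind AU-rich stretches behind the coding sequence.

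The sequences below show what the inhibitor acts on and which of the genes carry a match to it. The mature microRNA that the inhibitor is labelled to block and its close relative share 1 seed, bases 2 to 8, given in capitals (RefSeq, build GRCm38.p6, chr8:84208727-84208747 and chr13:63300760-63300780, both plus strand).

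mmu-miR-27a-3p: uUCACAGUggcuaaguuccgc
mmu-miR-27b-3p: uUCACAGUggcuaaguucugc

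A match to this seed behind the stop codon was searched in the longest annotated 3′ UTR of each gene (GENCODE M21, GRCm38), on the transcript strand alone. The 8mer ACTGTGAA was present in 1 of the 10 genes, Csf1, against 6.05% of 14174 genes with at least 1 read and an annotated 3′ UTR. The 7mer ACTGTGA, which also lies within every 8mer, was present in Csf1 and Ccl2, against 16.9% of those genes. The matches are printed with the paired letters in capitals. Their shared core CTGTGA starts at bases 792 and 1980 of the Csf1 3′ UTR and at bases 12 and 123 of that of Ccl2.

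Csf1 8mer: gaagccattgcACTGTGAAtactgaacctg
Csf1 7mer: ctgcctcacaaACTGTGAgactgcgttttt
Ccl2 7mer: tgtgactcggACTGTGAtgccttaattaa
Ccl2 7mer with a final A: atttttccctctCTGTGAAtccagattcaa

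Cxcl2 and Cxcl12 each had 1 match to the 6-letter core CTGTGA, which 46.9% of genes have. The other 6, Cxcl1, Cxcl5, Cxcl16, Ccl20, Csf2 and Csf3, had no match to the core in this window. The libraries give no level of the mature microRNA, since poly(A) selection does not capture it, and the Mir27a row held 1 read over the 4 knockdown libraries and 0 over the 4 scrambled libraries.

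Of the 10 genes, 7 were expressed and 3 were present at trace level, where expressed means a mean of at least 1 CPM (read counts scaled to the library total, not to gene length) in at least 1 group. The expressed genes were Cxcl5, Cxcl16, Csf1, Csf2, Ccl20, Cxcl1 and Csf3. Per kilobase of exon, which allows levels of different genes to be compared, Cxcl5 was the highest in both groups, with 11.7 ± 0.978 CPM per kb in the knockdown and 20.8 ± 2.49 CPM per kb in the scrambled libraries (SD, n = 4 each). Cxcl16 was second, with 7.88 ± 0.595 against 7.82 ± 0.301 CPM per kb, and the ranges of Cxcl5 and Cxcl16 did not overlap in either group. Csf2 followed with 1.91 ± 0.239 against 3.36 ± 0.434 CPM per kb, and Csf1 with 1.67 ± 0.102 against 1.59 ± 0.142 CPM per kb. The ranges of Csf2 and Csf1 overlapped in the knockdown but not in the scrambled libraries. Ccl20 stood at 0.868 ± 0.268 against 1.19 ± 0.144, Csf3 at 0.730 ± 0.177 against 0.683 ± 0.147 and Cxcl1 at 0.370 ± 0.157 against 0.945 ± 0.190 CPM per kb. Cxcl1 ranked seventh in the knockdown, below and not overlapping Csf3, and sixth in the scrambled libraries, where its range overlapped those of Ccl20 and Csf3.

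Library totals were 19165513 to 21735023 counts in the knockdown and 20021056 to 23542275 in the scrambled libraries, and the limit that a count of 0 allows, 3 reads, was 0.127 to 0.157 CPM (counting error only). Scrambled replicate 2 stood apart: its counts differed from those of the other scrambled libraries by 5.19 to 5.36 chi-square units for each gene, while the remaining pairs within a group differed by 1.73 to 2.35. The lines differed widely, since edgeR called 47.9% of 11797 tested genes at an adjusted p under 0.05. Those called higher in the knockdown were 23.8% and those called lower 24.1%, around a median log2 fold change of 0.0017. This balance depends on the scaling, with 2804 genes higher and 2841 lower by TMM, 3188 and 2478 with upper-quartile factors, and 3339 and 2376 with library totals alone. The cells carried the epithelial markers, 8 of 8 tested, with a summed level of 11489.9 to 11802.8 CPM in the knockdown and 10619.5 to 11596.5 CPM in the scrambled libraries, led by the keratins Krt8, Krt18, Krt7 and Krt19. Of these 8, 3 rose, 3 fell and 2 were not called, with Krt7 1.24-fold higher (adjusted p = 9.04e-12), Cdh1 1.17-fold higher (1.02e-08), Krt19 1.06-fold lower (0.00506), Cldn7 1.16-fold lower (0.00579), and Krt8 and Epcam not called (0.442 and 0.0718). With library totals alone 1 marker was lower instead of 3, and Krt19 missed the threshold (adjusted p = 0.0505). Epcam was called lower with no filter (0.0153), without knockdown replicate 1 (0.0177) and without scrambled replicate 3 (0.0154). The remaining rise, Krt18 (1.05-fold, 0.0335), missed the threshold without knockdown replicate 1, 2 or 3 or scrambled replicate 1, 3 or 4 (0.0648 to 0.120). The remaining fall, Elf3 (1.07-fold, 0.0184), missed it with upper-quartile factors (0.05445) and with library totals alone (0.0781). Of 9 myeloid markers 1 was tested, Cd68, a lysosomal gene that many cells express (adjusted p = 0.334). Lyz2, Adgre1 and Tyrobp were at 0 in all 8 libraries. The other 5, Ptprc, S100a8, S100a9, Csf1r and Itgam, were at trace level. Ptprc was the highest of these, with 18 reads over the knockdown and 36 over the scrambled libraries. The myeloid markers summed to 2.83 to 4.80 CPM in the knockdown and 3.99 to 4.66 CPM in the scrambled libraries. Of 8 fibroblast markers 5 were at 0, among them Dcn, Lum and Col1a2, the tested Col1a1 and Pdgfra were not called (adjusted p = 0.349 and 0.232), and the sum was 0.730 to 1.39 CPM in the knockdown and 0.934 to 1.39 CPM in the scrambled libraries. Of 5 endothelial markers none passed the filter, and the sum was 0.184 to 0.671 CPM in the knockdown and 0.337 to 1.02 CPM in the scrambled libraries. Kdr gave most of it in the scrambled libraries, with 3 to 5 reads per knockdown library and 7 to 24 reads per scrambled library. In edgeR's alternative fits it was called lower with no filter, without any 1 of the knockdown libraries and without scrambled replicate 4 (adjusted p of 0.000382 to 0.00570). With a library left out, Kdr passed the low-count filter only through the scrambled libraries, where it is high. In the other alternatives the filter dropped Kdr, so it had no test there. Its part in the results was not tested.

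**Figure D1:**
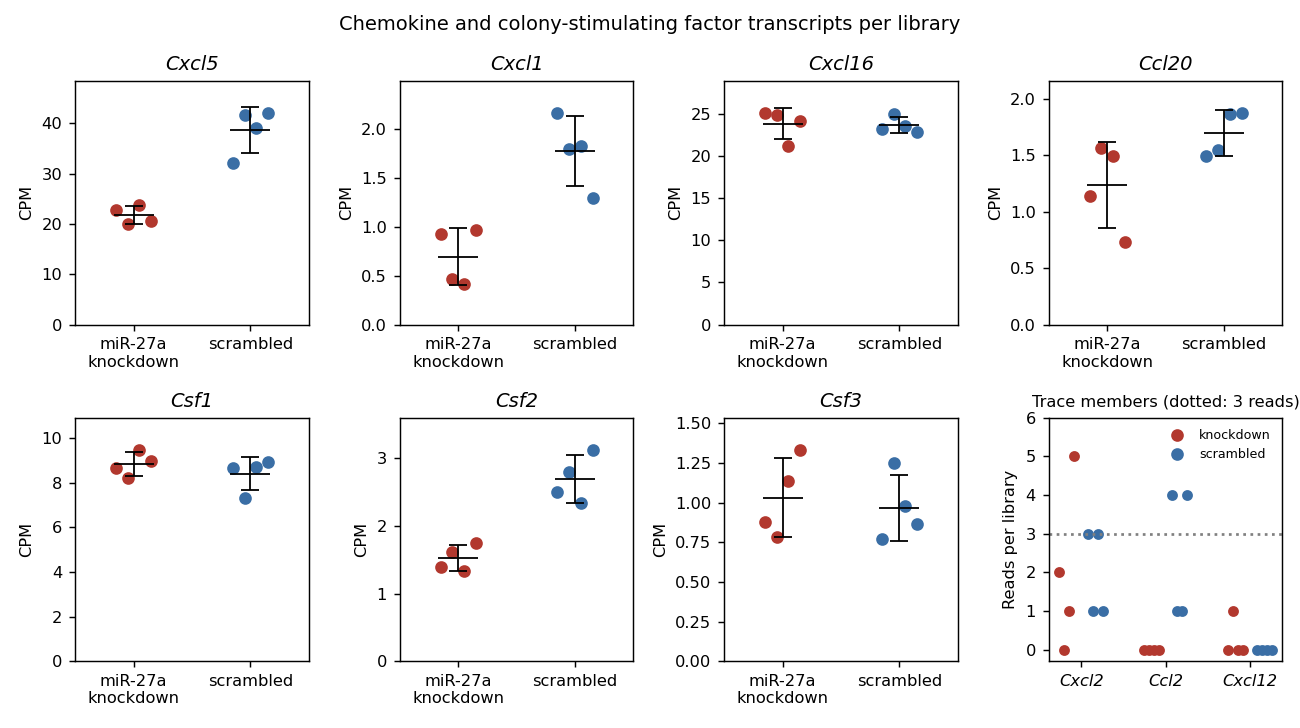
Level of each expressed gene in CPM, and reads per library of the 3 trace genes, in the 4 knockdown (left, red) and 4 scrambled libraries (right, blue), with points for libraries and bars for the mean ± SD. Cxcl5, Cxcl1 and Csf2 are lower in every knockdown library than in any scrambled library, while Cxcl16, Ccl20, Csf1 and Csf3 overlap.

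The neutrophil chemokines Cxcl5 and Cxcl1 and the growth factor Csf2 fell in the knockdown, and none of the 10 genes was called higher. Cxcl5, the highest of the 10 per kilobase, fell 1.81-fold, Cxcl1 fell 2.56-fold and Csf2 fell 1.78-fold. Cxcl16, Ccl20, Csf1 and Csf3 did not pass the test. In edgeR's test 3 of the 7 tested genes were called lower and 0 higher, and 4 were lower and 0 higher at an unadjusted p under 0.05. DESeq2 and limma-voom also called 3 lower and 0 higher. The 3 falls are 42.9% of the tested genes, beside 24.1% of all genes called lower at the same scaling and 47.9% called in either direction, so a call as such does not set these genes apart. Of the 7, Cxcl1 passed the filter on low counts only through the scrambled libraries, where it is high, and the other 6 passed in both groups.

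Among the neutrophil chemokines, Cxcl5 (chromosome 5, 90759360 to 90761624, GRCm38) had 22.8, 19.9, 23.9 and 20.7 CPM in knockdown replicates 1 to 4, against 32.1, 41.6, 39.0 and 42.1 CPM in scrambled replicates 1 to 4. All 4 knockdown libraries lay below the lowest scrambled library, which was replicate 1. The log2 fold change was −0.85 (SE 0.0745, adjusted p = 3.22e-09), a fall of 1.81-fold with a 95% interval of 1.62 to 2.01. It was −0.82 without scrambled replicate 2, where Cxcl1 was at −1.35 and Csf2 at −0.81. Groups that do not overlap were found for 42.7% of all tested genes. In bulk RNA, fewer cells making a transcript and less of it per cell cannot be told apart. The summed level of the 10 genes was 57.4 to 61.0 CPM in the knockdown and 71.2 to 81.3 CPM in the scrambled libraries. Cxcl5 made up 34.7% to 40.5% of that sum in the knockdown and 45.0% to 51.8% in the scrambled libraries. Of its 1894 windows of 59 bases, the read length, 13 also occur in transcripts of other genes.

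Cxcl1 (chromosome 5, 90891241 to 90893115), the mouse KC or Gro chemokine, was scarce. It had 0.929, 0.470, 0.412 and 0.966 CPM in knockdown replicates 1 to 4, from 18, 9, 8 and 21 reads. The scrambled replicates 1 to 4 had 2.16, 1.80, 1.83 and 1.30 CPM, from 45, 36, 43 and 27 reads. The groups did not overlap, and the nearest libraries, knockdown replicate 4 and scrambled replicate 4, were 21 and 27 reads. The log2 fold change was −1.35 (SE 0.270, adjusted p = 0.000255), a fall of 2.56-fold with a 95% interval of 1.73 to 3.77.

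Cxcl2 (chromosome 5, 90903871 to 90905938), or MIP-2, the close relative of Cxcl1 in sequence and in receptor, was at trace level. It had 2, 0, 1 and 5 reads in the knockdown and 3, 1, 3 and 1 reads in the scrambled libraries, so most libraries were at or below the 3-read limit and no fold is given. Of its 2177 windows of 59 bases 117 are shared with Cxcl3 (5.37%), so reads of the 2 genes could be split or dropped, while Cxcl1 shares none.

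Among the other chemokines, Cxcl16 (chromosome 11, 70453983 to 70459984), a chemokine with a membrane anchor that also serves as a scavenger receptor, was not called. It had 25.1, 24.8, 21.2 and 24.1 CPM in knockdown replicates 1 to 4 and 23.2, 24.9, 23.5 and 22.8 CPM in scrambled replicates 1 to 4. The log2 fold change was −0.01 with a 95% interval of −0.14 to 0.11 (adjusted p = 0.867). Cxcl16 shares 552 exon bases with Zmynd15 on the opposite strand, which had 5 to 13 reads in the knockdown and 6 to 15 in the scrambled libraries, beside 411 to 524 and 475 to 554 reads for Cxcl16.

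Ccl20 (chromosome 1, 83116766 to 83119167), which attracts Ccr6-bearing lymphocytes and dendritic cells, had 1.14, 1.57, 1.49 and 0.736 CPM in the knockdown and 1.49, 1.55, 1.87 and 1.88 CPM in the scrambled libraries. The groups overlapped at knockdown replicates 2 and 3. The log2 fold change was −0.50 with a 95% interval of −0.98 to −0.03, and edgeR's p did not pass the correction over all genes (unadjusted 0.0400, adjusted p = 0.0772). Without knockdown replicate 2 it was −0.64 and passed (adjusted p = 0.0455).

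Ccl2 (chromosome 11, 82035571 to 82037453), the monocyte chemokine MCP-1, had 0 reads in each of the 4 knockdown libraries and 4, 1, 1 and 4 reads in the scrambled libraries. A count of 0 allows up to 0.138 to 0.157 CPM per knockdown library. The scrambled libraries averaged 0.119 ± 0.0844 CPM (SD, n = 4), and only replicates 1 and 4, with 4 reads each, were above that limit. Ccl2 was below the filter and was not tested, so no fold is given. In edgeR's fit with no filter it was called lower (adjusted p = 0.0133). Cxcl12 (chromosome 6, 117168535 to 117181367), the stromal chemokine SDF-1, had a single read, in knockdown replicate 2.

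Among the colony-stimulating factors, Csf2 (chromosome 11, 54247271 to 54249667) had 1.39, 1.62, 1.34 and 1.75 CPM in knockdown replicates 1 to 4, from 26 to 38 reads. It had 2.50, 2.80, 2.34 and 3.13 CPM in scrambled replicates 1 to 4, from 52 to 65 reads. Every knockdown library was below every scrambled library. The log2 fold change was −0.83 (SE 0.179, adjusted p = 0.000549), a fall of 1.78-fold with a 95% interval of 1.38 to 2.30. Csf2 shares 96 exon bases with the antisense gene Gm12223, whose reads cannot be told apart without the strand setting of the counting, which is not given in the sources used here.

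Csf1 (chromosome 3, 107741048 to 107760469) had 8.67, 8.19, 9.48 and 8.97 CPM in the knockdown and 8.65, 7.29, 8.71 and 8.94 CPM in the scrambled libraries. The log2 fold change was 0.04 with a 95% interval of −0.15 to 0.24 (adjusted p = 0.717), so the gene with the 8mer and 7mer matches to miR-27 shown above was not called. Csf3 (chromosome 11, 98701263 to 98703629) had 0.877, 0.783, 1.13 and 1.33 CPM in the knockdown and 0.769, 1.25, 0.977 and 0.865 CPM in the scrambled libraries. Its log2 fold change was 0.08, with a 95% interval of −0.45 to 0.62 (adjusted p = 0.812), wide enough to hold a change of up to 1.54-fold upward or 1.37-fold downward.

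**Figure D2:**
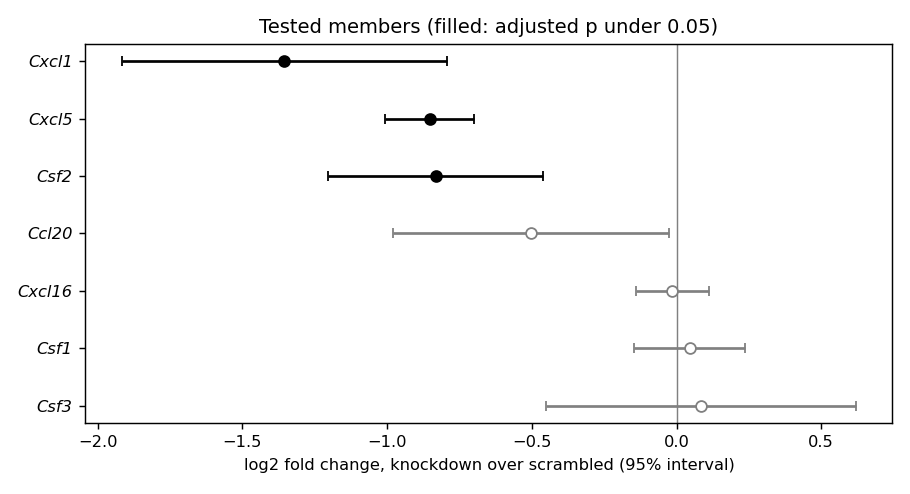
Log2 fold change (knockdown over scrambled) of the 7 tested genes with 95% intervals from edgeR, filled where the adjusted p is under 0.05. Cxcl1, Cxcl5 and Csf2 lie at −1.35, −0.85 and −0.83, the interval of Ccl20 ends at −0.03, and those of Cxcl16, Csf1 and Csf3 span 0.

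Of the 10 genes, the called chemokines Cxcl5 and Cxcl1 both lie on chromosome 5. They belong to a cluster of 7 annotated CXC genes that runs over 147 kb from Cxcl5 to Cxcl2. Besides Cxcl5 and Cxcl1, the cluster holds Ppbp, the platelet chemokine precursor of Cxcl7, and Cxcl3, both Cxcr2 ligands. Ppbp (90768518 to 90770063) had 1.55, 2.09, 1.96 and 1.56 CPM in the knockdown and 2.02, 3.05, 2.68 and 3.08 CPM in the scrambled libraries and fell 1.54-fold (log2 fold change −0.62, SE 0.184, adjusted p = 0.00779). Its groups overlapped at scrambled replicate 1. Cxcl3 (90786103 to 90789600) had 6, 5, 6 and 7 reads in the knockdown and 23, 12, 27 and 11 reads in the scrambled libraries and fell 2.85-fold (log2 fold change −1.51, SE 0.367, adjusted p = 0.00167). Like Cxcl1 it passed the low-count filter only through the scrambled libraries, and its reads can be mixed with those of Cxcl2. For both, the filter left little room for another call, so no count is drawn over the cluster. Cxcl2 and Cxcl15 were at trace level and Pf4 was at 0.

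The flanks of the cluster were looked at after its values were known. Within 1 Mb of Cxcl5, Cxcl1 or Cxcl2, 11 other protein-coding genes were tested, of which 5 rose, 0 fell and 6 were not called by edgeR, with log2 fold changes of −0.10 to 0.39. Over all tested genes, edgeR called 23.8% higher and 24.1% lower. The rises were in Ankrd17 (0.28), Mthfd2l (0.23), Areg (0.32), Ereg (0.15) and Parm1 (0.39). Areg and Ereg encode growth factors of the EGF family. Around Csf2, 24 other genes were tested within the same distance, of which 4 rose, 8 fell and 12 were not called.

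**Figure D3:**
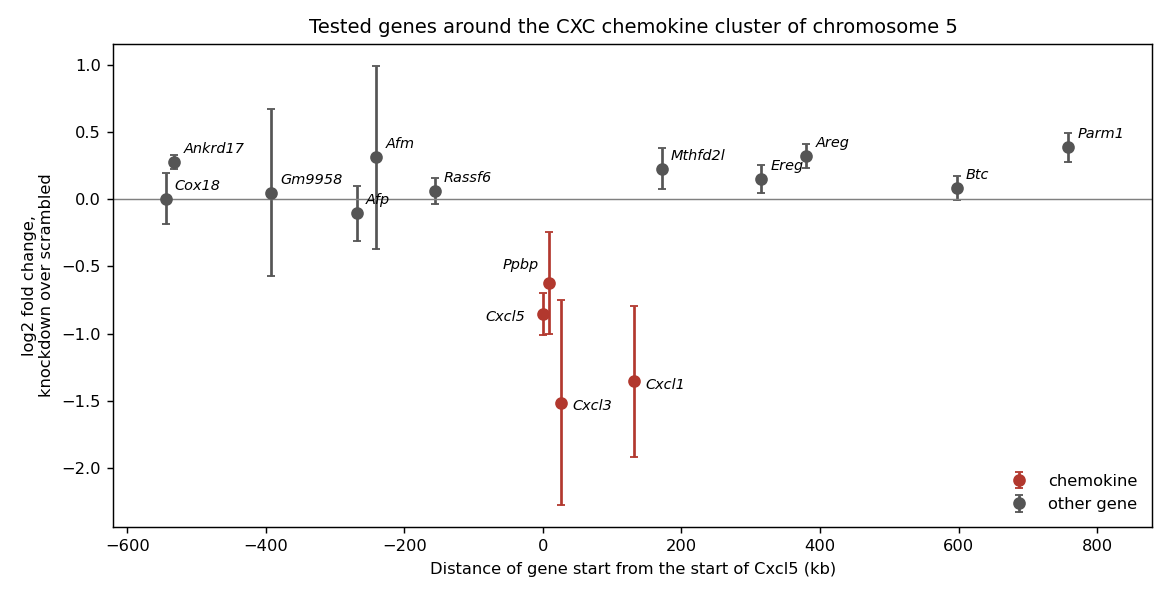
Log2 fold change (knockdown over scrambled) with 95% intervals of the 15 tested protein-coding genes around the CXC cluster, against the distance of each gene's start from that of Cxcl5 in kb. The 4 chemokines (red) lie at −0.62 to −1.51, and of these Cxcl1 and Cxcl3 passed the low-count filter only through the scrambled libraries. The 11 other genes (grey) lie at −0.10 to 0.39 and were looked at after the cluster's values were known.

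Promoters from the RefSeq promoter table used here (GRCm38.p6) are shown for Cxcl1, which fell, and for Ccl20 and Csf1, which were not called. The Csf2 entry begins at a start upstream of the gene as given above and was not used. Each runs 5′ to 3′ on the gene's strand, from 250 bases before to 50 after the start. Capitals mark matches to the NF-kB consensus, searched on both strands, which 8.46% of 32851 promoters of this length hold. The windows are chr5:90890995-90891294 (plus strand), chr1:83116516-83116815 (plus strand) and chr3:107760420-107760719 (minus strand).

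Cxcl1 promoter: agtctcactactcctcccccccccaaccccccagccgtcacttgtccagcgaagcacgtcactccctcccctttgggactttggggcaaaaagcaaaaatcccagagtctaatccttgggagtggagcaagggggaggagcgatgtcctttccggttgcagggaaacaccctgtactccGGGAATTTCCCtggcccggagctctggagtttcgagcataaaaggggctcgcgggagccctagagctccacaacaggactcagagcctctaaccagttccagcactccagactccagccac
Ccl20 promoter: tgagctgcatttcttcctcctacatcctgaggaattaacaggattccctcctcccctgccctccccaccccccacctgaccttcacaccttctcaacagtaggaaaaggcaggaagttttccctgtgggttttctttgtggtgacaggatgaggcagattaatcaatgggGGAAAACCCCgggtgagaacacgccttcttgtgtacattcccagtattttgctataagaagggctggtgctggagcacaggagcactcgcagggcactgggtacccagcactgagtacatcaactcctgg
Csf1 promoter: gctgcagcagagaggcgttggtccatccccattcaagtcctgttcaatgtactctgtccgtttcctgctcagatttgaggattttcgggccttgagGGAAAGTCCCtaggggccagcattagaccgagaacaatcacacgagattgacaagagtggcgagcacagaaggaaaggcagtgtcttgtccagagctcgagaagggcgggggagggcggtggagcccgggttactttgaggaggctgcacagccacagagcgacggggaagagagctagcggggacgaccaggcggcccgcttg

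Cxcl1 has overlapping matches on both strands, at −71 to −62 and −70 to −61 from the start. Cxcl2 and Cxcl3 hold the same overlapping pair. Ccl20 and Csf1 have 1 match each, on the other strand, at −80 to −71 and −154 to −145. Ppbp, which fell, and Cxcl12, at trace level, had no match. For Cxcl5, Cxcl16, Ccl2 and Csf3 the promoter table held no entry, so they were not searched. Matches were thus present in Cxcl1 and Cxcl3, which fell, and in Ccl20 and Csf1, which were not called. Cxcl5 and Csf2, which also fell, had no promoter entry that could be used. The part of these matches in the falls was not tested.

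AU-rich motifs were counted in the same 3′ UTRs. The nonamer UUAUUUAUU, searched as TTATTTATT on the transcript strand, was present 2 times in Cxcl1, 4 times in Csf2 and 0 times in Cxcl5, Cxcl16, Ccl20, Csf1 and Csf3. Of the trace genes, Cxcl2 had 4, and 7.88% of 14174 genes have at least 1. The shorter AUUUA, which also lies within the nonamer, occurred 7 times in Cxcl1, 5 in Cxcl5, 9 in Csf2, 9 in Ccl20, 6 in Csf3, 4 in Csf1 and 2 in Cxcl16, and 36.9% of genes have 3 or more. These are counts of letters and not of bound sites.

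The other ligands, receptors and regulators were taken from lists made with earlier results of these data known. Beside the calls in each list below, 23.8% of all tested genes were called higher and 24.1% lower. Of 33 other chemokines and myeloid growth factors, 10 were tested, of which 1 rose, 5 fell and 4 were not called. Their median log2 fold change was −0.16, and 13 of the 33 had 0 reads in all libraries. The falls include Cxcl3, which passed the low-count filter only through the scrambled libraries, so no shift of the list is read from them. Kitl, the ligand of the receptor Kit, fell by 0.26 on the log2 scale, with 156 ± 4.16 CPM in the knockdown and 185 ± 9.78 CPM in the scrambled libraries (adjusted p = 7.68e-07). Mif, which binds Cd74 and Cxcr2, fell 1.12-fold, with 159 ± 8.64 against 176 ± 5.13 CPM (adjusted p = 0.000309). Il34, the second ligand of the Csf1 receptor, had 9.29 ± 0.369 against 8.09 ± 0.477 CPM (adjusted p = 0.101), and Flt3l, which expands dendritic cells, 3.20 ± 0.743 against 2.66 ± 0.461 CPM (adjusted p = 0.287). Among the rest, which the naming rule did not take, Ccl25 was also called lower, but not by DESeq2 nor without knockdown replicate 3 or scrambled replicate 3. Cx3cl1, an anchored chemokine, was the 1 called higher (1.10-fold). Ccl28 joined it without knockdown replicate 1 (adjusted p = 0.0499) and without scrambled replicate 4 (adjusted p = 0.0444).

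Receptors for these signals were mostly at 0. Of 23, 14 had 0 reads in all 8 libraries, among them Cxcr4, Cxcr6, Ccr2, Ccr6, Csf3r and the GM-CSF receptor beta chain Csf2rb, 7 were at trace level and 2 were expressed. Cxcr2, the receptor of the chemokines that fell, had 1 read in knockdown replicate 1 and 1 read in scrambled replicate 3. Csf1r had 0 to 4 reads in the knockdown and 1 to 3 in the scrambled libraries. Ackr3, an atypical receptor that binds Cxcl12 and removes it, was the highest, with 23.0, 22.5, 22.5 and 22.5 CPM in the knockdown against 16.3, 15.4, 14.1 and 15.9 CPM in the scrambled libraries. The groups did not overlap, and Ackr3 rose 1.44-fold (log2 fold change 0.53, SE 0.0623, adjusted p = 3.36e-07). Csf2ra, the alpha chain of the GM-CSF receptor, had 3.15, 4.02, 3.30 and 3.45 against 2.98, 2.35, 2.12 and 2.74 CPM and rose 1.34-fold (adjusted p = 0.0264). It missed the threshold in DESeq2 (adjusted p = 0.053), without knockdown replicate 2 (0.0926) and without scrambled replicate 3 (0.0927).

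Genes that release or hold chemokines at the cell surface went both ways, with 3 rises, 3 falls and 4 not called of 10 tested (median −0.01). Adam10, the protease that sheds Cxcl16 and Cx3cl1 from the membrane, fell 1.40-fold, with 176, 178, 174 and 177 CPM in the knockdown against 243, 233, 248 and 246 CPM in the scrambled libraries (log2 fold change −0.48, SE 0.0263, adjusted p = 1.02e-12). Its relative Adam17 had 95.6 ± 2.54 against 92.2 ± 3.73 CPM and was not called (adjusted p = 0.555). It is outside the naming rule. Timp3, a secreted metalloproteinase inhibitor, rose 1.65-fold, with 26.6 ± 2.27 against 15.8 ± 0.863 CPM (adjusted p = 9.47e-09). The syndecans carry heparan sulfate, to which chemokines bind. Sdc1 rose 1.24-fold (548 ± 11.4 against 435 ± 4.08 CPM, adjusted p = 1.23e-10) and Sdc4 fell 1.35-fold (152 ± 3.94 against 202 ± 5.67 CPM, adjusted p = 2.75e-11). Ndst1 and Ext2, enzymes of heparan sulfate synthesis, stood at 103 ± 4.21 against 105 ± 3.25 CPM and at 103 ± 3.00 against 96.4 ± 2.81 CPM (adjusted p = 0.220 and 0.0957), and Ext2 was called with upper-quartile factors, with library totals alone and without knockdown replicate 4 (adjusted p = 0.0316, 0.0227 and 0.0426).

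Genes that drive or restrain transcription of chemokines were split too, with 6 rises, 6 falls and 16 not called of 28 tested (median −0.01). The list mixes activators with brakes, so these counts give no direction of drive. Over all tested genes 47.9% were called in either direction. Il17ra, the receptor subunit for IL-17, which is known to induce Cxcl1, Cxcl5 and Csf3, fell 1.39-fold, with 17.4, 17.4, 17.5 and 16.1 CPM in the knockdown against 23.4, 21.6, 23.9 and 24.3 CPM in the scrambled libraries (log2 fold change −0.48, adjusted p = 1.28e-06). Ikbkb, a kinase that activates NF-kB, rose 1.24-fold (72.3 ± 2.12 against 57.2 ± 2.40 CPM, adjusted p = 8.07e-07). Tnfaip3, the NF-kB brake A20, rose 1.16-fold (69.1 ± 1.66 against 58.6 ± 1.17 CPM, adjusted p = 4.65e-05), and Nfkb1, which encodes the p50 subunit, 1.12-fold (93.2 ± 2.19 against 81.9 ± 4.68 CPM, adjusted p = 0.00159). Ets2 and Hif1a were the most abundant genes not called, with 195 ± 3.39 against 188 ± 9.98 CPM and 181 ± 6.32 against 182 ± 3.31 CPM (adjusted p = 0.516 and 0.287). Without scrambled replicate 2, Ets2 was called at a log2 fold change of 0.06 (adjusted p = 0.0284). Outside the naming rule, the falls of Nfkb2, Jun and Myd88 and the rises of Tab2 and Tnfrsf1a missed the threshold in some alternatives. Traf6, Nfkbib and Nfkbiz, not called here, passed it in some.

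Factors that degrade or stabilise AU-rich messages had 3 rises, 2 falls and 9 not called of 14 tested (median −0.02). Khsrp, a decay factor, fell 1.10-fold (319 ± 2.75 against 345 ± 4.66 CPM, adjusted p = 1.87e-05) and Elavl1, the stabiliser HuR, fell 1.12-fold (127 ± 1.13 against 139 ± 7.86 CPM, adjusted p = 0.000568). Cnot1, the scaffold of the deadenylase complex, rose 1.10-fold (366 ± 3.84 against 327 ± 10.6 CPM, adjusted p = 0.000118) and Arid5a, which stabilises cytokine messages, 1.13-fold (19.1 ± 0.565 against 16.6 ± 1.00 CPM, adjusted p = 0.0254). Arid5a missed the threshold without knockdown replicate 1 (0.0726), knockdown replicate 4 (0.0540), scrambled replicate 3 (0.0634) or scrambled replicate 4 (0.0818). The other rise, Zfp36, a decay factor outside the naming rule, missed it in DESeq2 (0.0628) and without any 1 of the knockdown libraries (0.0611 to 0.0821). It also missed it without scrambled replicate 1 (0.146) or 4 (0.0855). Without knockdown replicate 1, or without knockdown replicate 4, 1 rise was left. Rc3h2, not called (0.0501) and outside the rule, was called higher by limma-voom and with every other scaling, the stricter filter or the replicate block. The same held without knockdown replicate 3, scrambled replicate 2 or scrambled replicate 4 (all alternatives 0.0138 to 0.04955). Zfp36l2, a decay factor, and Hnrnpd were not called, with 334 ± 14.2 against 343 ± 29.3 CPM and 270 ± 5.53 against 272 ± 12.1 CPM (adjusted p = 0.198 and 0.275). Zfp36l2 was called without scrambled replicate 1 (adjusted p = 0.0395). The part of these regulators in the falls of Cxcl1, Cxcl5 and Csf2 was not tested.

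**Figure D4:**
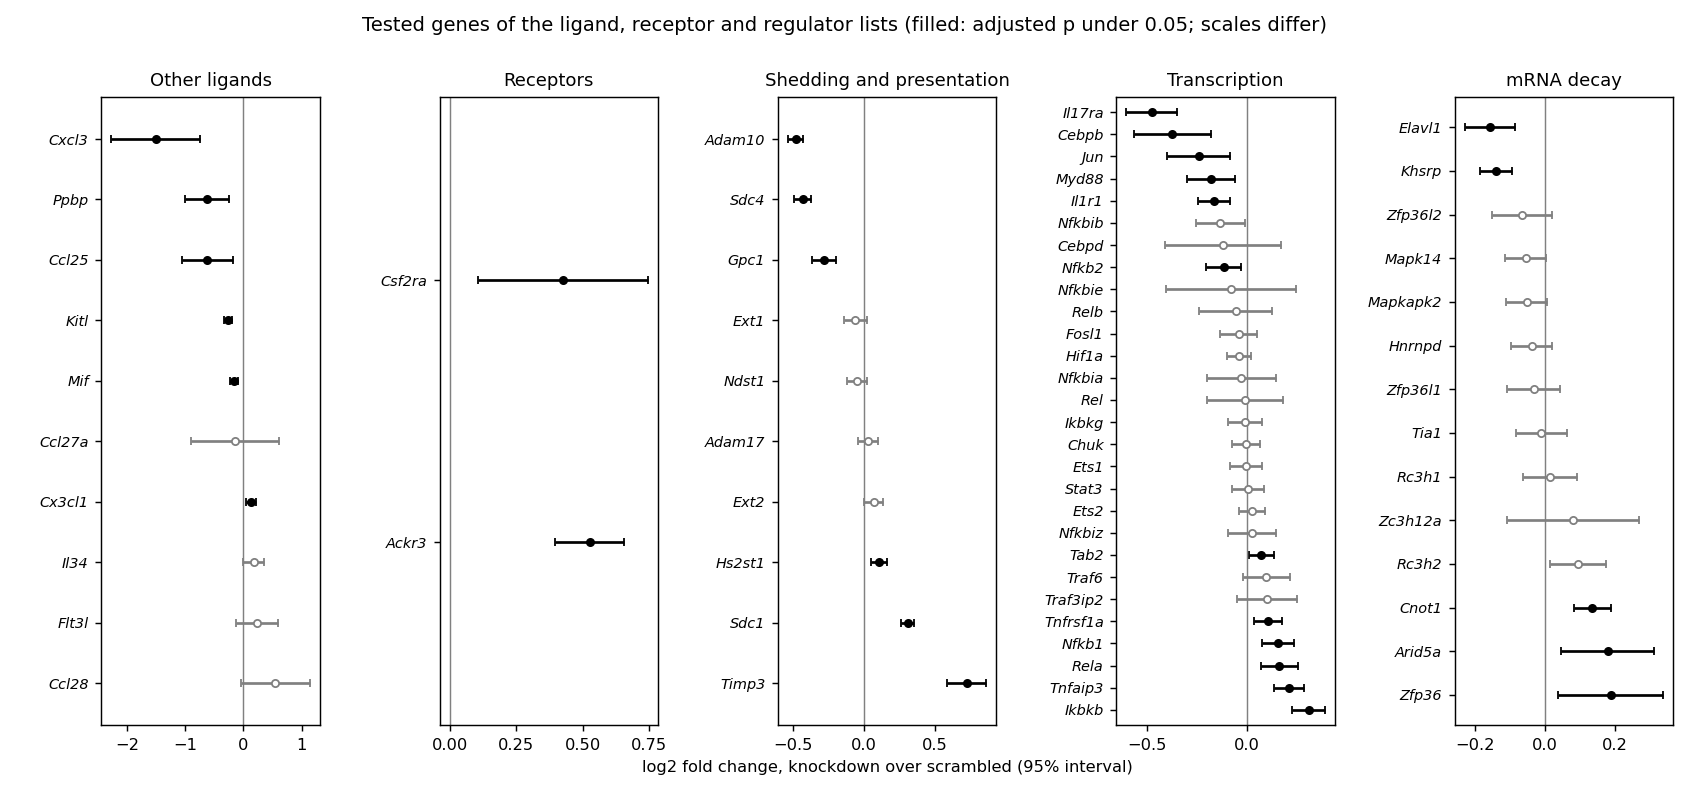
Log2 fold change (knockdown over scrambled) with 95% intervals from edgeR of the tested genes in the lists of other ligands, receptors, shedding and presentation, transcription and mRNA decay, filled where the adjusted p is under 0.05, with a different scale in each panel. Cxcl3 and Ppbp lie lowest among ligands, and Cxcl3 passed the low-count filter only through the scrambled libraries. Ackr3 and Csf2ra are the 2 receptors tested, and Timp3 and Adam10 lie at the ends of the shedding list.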

How the data were processed

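Raw counts per gene symbol were deposited by the authors as 24421 rows and 8 columns. The submitters' processing notes name bcl2fastq (2.20), Bowtie, STAR, DESeq2 (1.36.0), R (4.2.1) and mm10, without roles. How reads were counted, and whether by strand, is not given in the sources used here. Columns were matched to libraries by title. All rows entered edgeR 4.0.16 (R 4.3.3): filterByExpr by group (minimum count 10, total 15, about 0.490 CPM in 4 libraries), which kept 11797 genes, TMM factors (0.991 to 1.01), and the quasi-likelihood test (glmQLFit, glmQLFTest) with group as the one term. Calls are at a Benjamini-Hochberg adjusted p under 0.05, with no fold threshold. Printed levels are CPM scaled to library totals, and per-kb levels divide by the merged exon length in GENCODE M21 (GRCm38). Intervals are 95%. Sequences and promoters are RefSeq's of GRCm38.p6. The members and lists were chosen with earlier results of these data known.

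All 10 members are described. In each other list, every tested gene is named if 5 or fewer were tested, otherwise up to 4 called genes with the smallest adjusted p and the 2 most abundant not called. Alternatives were DESeq2's size factors, upper-quartile factors, library totals alone, a blocked fit on the replicate number, no filter, a stricter filter of 1 CPM in 4 libraries, limma-voom (limma 3.58.1), DESeq2 1.42.0, and leaving out each library.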

Additional observations from a re-analysis of the deposited data

How the results depend on the processing

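Over the 16 alternatives, Cxcl1 stayed called lower at log2 fold changes of −1.57 to −1.18, Cxcl5 at −0.93 to −0.81 and Csf2 at −0.91 to −0.75, with adjusted p of at most 0.00195, 1.79e-07 and 0.00318. Of the 10 genes, 3 were called under each alternative but 2, with 4 called under no filter, where Ccl2 joined them at 0 knockdown and 10 scrambled reads (adjusted p = 0.0133) and 4 without knockdown replicate 2, where Ccl20 did. Leaving out each library gave Ccl20 log2 fold changes of −0.64 to −0.31. Cxcl16, Csf1 and Csf3, none of them called, changed sign. Cxcl16 was at 0.0049 with upper-quartile factors and 0.0113 with library totals alone, and between −0.0400 and 0.0371 with 1 library left out. Csf1 ranged from −0.0146 to 0.0780 with 1 library left out, lowest without scrambled replicate 2, and Csf3 from −0.0727, without knockdown replicate 4, to 0.22. For an epithelial marker, the Krt8 log2 fold change ranged from −0.0450 to 0.0186 with 1 library left out. The cause was not tested. The titles do not say whether same-numbered libraries were handled together. Deviations of same-numbered libraries correlated at −0.0350 to 0.0201, and 1 of 4 knockdown libraries correlated best with its own replicate number. No pairing by number was seen in this check. With the number as a replicate block 5533 genes and the same count of members, 3, were called. Depth limits Cxcl2, Ccl2 and Cxcl12, for which no fold could be measured, and widens the intervals of Cxcl1, Ccl20, Csf2 and Csf3, which rest on 8 to 65 reads per library.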
